A study of Mus musculus with 12 samples.

Results

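Mouse CD117+ bone marrow cells of 2 array sets, both without stem cell factor (SCF), were compared on Illumina expression arrays. They were chosen by their array titles. The 3 arrays titled U-1 to U-3 were set against the 3 arrays titled C-1 to C-3, which made 6 of the 12 arrays of the study. The other 6 arrays held CD117- cells (A-1 to A-3) and CD117+ cells given SCF at 3 ug/ml for 48 h. All cells were labelled as bone marrow of mice aged 3 months, and the study worked with mice that carry a β-globin/GFP transgene. CD117+ cells were collected with antibody-coated magnetic beads, and the methods give a separate mouse for each replicate. No label writes out what U or C stands for. For nanoparticle experiments the methods describe culture of CD117+ cells in Iscove's medium with insulin, serum and erythropoietin, but they do not say whether the cells of either array set were cultured.

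CD117 (c-Kit, encoded by Kit) is the receptor for SCF. It marks haematopoietic stem and progenitor cells, early erythroid cells and mast cells, and is lost as most lineages mature. In the marrow such progenitors divide rapidly and give rise to red cells, megakaryocytes, granulocytes, monocytes and lymphocytes, each of which switches on a set of genes of its own. Markers of these lineages and of the programmes that accompany growth, division and stress were therefore described side by side.

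RNA was labelled as biotinylated cRNA and each probe reports the brightness of 1 transcript. At a detection p under 0.05, 17719 to 18248 of 45281 probes were above background on the C arrays and 17786 to 18081 on the U arrays. All 12 arrays were background-corrected and quantile normalized together, and levels are given as normalized log2 intensity, on which the dimmest signals above background lay between 4.63 and 4.82. Arrays of 1 set resembled each other. The median absolute difference of an array from the others of its set, averaged over them, was 0.143 to 0.163 for C arrays and 0.181 to 0.196 for U arrays, whereas C arrays differed from U arrays by 0.504 to 0.522. The authors had processed the A and C arrays apart from the U and SCF arrays, to medians of 93.5 and 103.5 on the linear scale, so the C and U cells belong to different array sets. The array set and the group cannot be told apart in any difference given here. With 3 arrays a side, the number of arrays limits the precision.

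Differences between the sets were large and went both ways. Of 11472 genes tested with limma, 3274 (28.5%) were higher in the U set at an adjusted p under 0.05, 3275 (28.5%) were lower, which is 57.1% in either direction, and the arrays of both sets did not overlap for 7538 (65.7%). With a change of at least 8-fold, 151 (1.32%) were higher and 73 (0.636%) lower. The share of higher genes among those called depended on the scaling. It was 50.0% here, 61.1% after median scaling and 87.9% in the authors' processed values, in which the median of all genes was 0.30 above 0 on the log2 scale, against -0.01 here. The shares over all genes are the background for every count of list members below, and a count near them is not read as a result about its list. No set test was run.

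**Figure D1:**
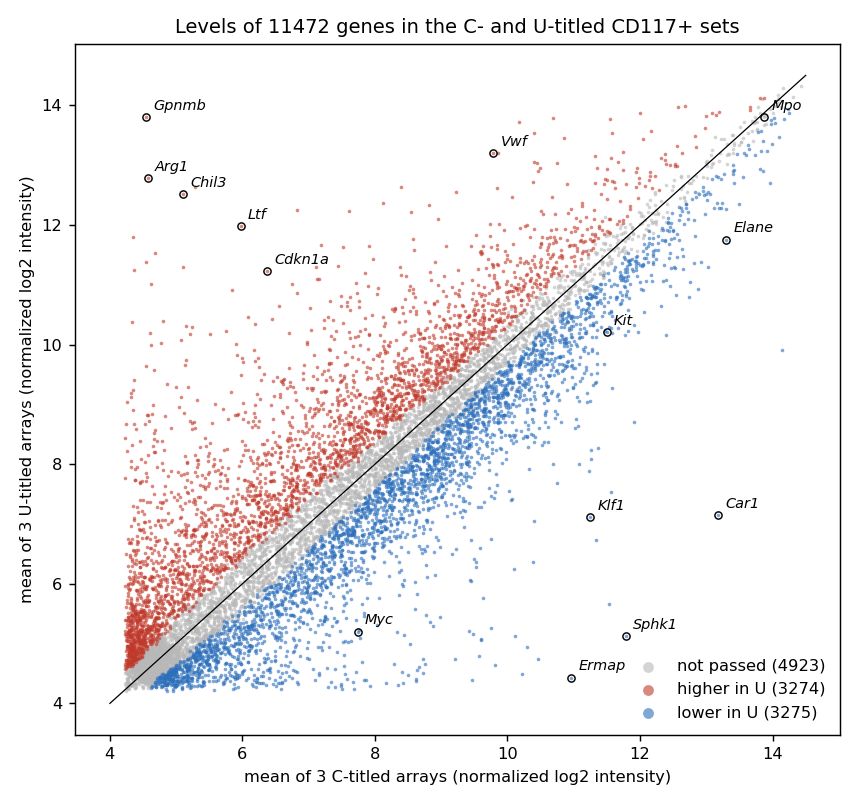
Mean normalized log2 intensity of each of the 11472 genes tested on the 3 C-titled arrays (horizontal axis) and the 3 U-titled arrays (vertical axis), with genes higher (red, 3274) or lower (blue, 3275) in the U set at an adjusted p under 0.05 and the line of equal levels. Gpnmb, Arg1, Chil3 and Ltf lie far above the line, Car1, Sphk1, Ermap and Klf1 far below it, and Mpo lies close to it.

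Kit itself was measured in both sets. Its level was 11.39, 11.53 and 11.57 on the C arrays and 10.39, 10.17 and 10.06 on the U arrays. All U arrays were below all C arrays, a 2.45-fold lower level (log2 difference -1.29, standard error 0.15, adjusted p = 1.56e-06 from limma). The mean of the CD117- arrays was 9.34 and that of the SCF arrays 10.69, so the U level lay between the CD117- and the C level.

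Erythroid markers made up 5 of the 12 largest decreases (Ermap, Car1, Kel, Rhag and Car2, the last with a second, dim probe at 0.24). Of 27 erythroid markers tested, 21 were lower in the U set, 2 were higher and 4 did not pass, with a median log2 difference of -2.22. Car1, a carbonic anhydrase of early erythroid cells, read 13.20, 13.06 and 13.27 on the C arrays and 7.05, 7.35 and 7.03 on the U arrays, a 65.4-fold lower level (log2 difference -6.03, standard error 0.14, adjusted p = 3.69e-15). The groups lay far apart, and every U array was also below the mean of 8.67 on the SCF arrays. Ermap, a membrane protein of red cell precursors, read 11.22, 10.92 and 10.75 on the C arrays and 4.46, 4.48 and 4.36 on the U arrays, where it was above background on 0 of 3 arrays, so its level was at least 79.5-fold lower (adjusted p = 4.36e-12). In bulk RNA, fewer cells of a type and less RNA per cell cannot be told apart.

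Blood group and membrane genes shared this pattern. Kel, the Kell antigen, was at 9.79, 9.82 and 9.80 on the C arrays and at 4.69, 4.55 and 4.68 on the U arrays, 35.9-fold lower. Rhag, the Rh-associated glycoprotein, fell from 9.35, 9.17 and 9.87 to values not above background, at least 28.2-fold lower. Ank1 and Slc4a1, which anchor the red cell skeleton and exchange anions across the membrane, had log2 differences of -4.49 and -3.02. Klf1, the zinc finger factor that drives erythroid genes, was at 11.39, 11.10 and 11.24 on the C arrays and at 7.14, 7.08 and 7.11 on the U arrays (log2 difference -4.13, standard error 0.13, adjusted p = 2.42e-13). Epor, the erythropoietin receptor, was 3.83-fold lower, with levels of 9.46, 9.12 and 9.10 against 7.30, 7.26 and 7.32.

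Other members of the erythroid list differed less or did not pass. The globin gene Hba-a1 was at 14.04, 13.80 and 13.58 on the C arrays and at 12.84, 12.79 and 13.17 on the U arrays, with a log2 difference of -0.87 (adjusted p = 4.29e-05). Hbb-b1 (log2 difference -0.29, adjusted p = 0.0938), Alas2, the erythroid enzyme that starts haem synthesis (0.03, adjusted p = 0.908), and Gata1, the erythroid and megakaryocytic factor (-0.37, adjusted p = 0.197), did not pass the test. Tfrc, the transferrin receptor, went the other way, from 11.63, 11.62 and 11.77 on the C arrays to 13.17, 13.31 and 12.68 on the U arrays.

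Of 18 haem synthesis and iron genes tested, 11 were lower and 4 higher, with a median of -0.84, but in the authors' processed values 8 were lower and 7 higher, with a median of -0.10. Several enzymes of haem synthesis were lower, among them Cpox and Alad, with log2 differences of -2.07 and -1.94, and so was Slc25a37, the mitochondrial iron importer (-2.14). The 2 genes that stood highest act on haem breakdown and iron storage. Hmox1, haem oxygenase, was at 7.51, 7.61 and 7.42 on the C arrays and at 11.77, 11.80 and 11.31 on the U arrays, 17.3-fold higher (log2 difference 4.11, standard error 0.30, adjusted p = 6.00e-09). Ftl1, the ferritin light chain, rose from 10.69, 10.64 and 10.72 to 13.76, 13.84 and 13.78.

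Stem and progenitor markers went both ways. Of 27 tested, 8 were higher, 10 lower and 9 did not pass, and their median of -0.07 was above 0 under median scaling (0.03) and in the authors' processed values (0.21, with 14 higher and 6 lower). Esam, an adhesion molecule of stem cells and megakaryocytes, was 5.51-fold higher (8.76, 9.10 and 8.87 on the C arrays against 11.58, 11.37 and 11.17 on the U arrays). Slamf1 (CD150), which marks long-term stem cells and megakaryocyte progenitors, was 5.36-fold higher. Bcl11a, a lymphoid and globin-switching factor, was 4.80-fold lower, and Myb, a factor that keeps progenitors dividing, had a log2 difference of -1.88 (adjusted p = 9.94e-08). Cd34 (7.01, 7.00 and 7.00 against 6.87, 7.00 and 7.08) and Gata2 (10.94, 11.03 and 11.02 against 11.23, 10.82 and 11.15) overlapped between the sets, with adjusted p-values of 0.932 and 0.733. Flt3 and Hlf did not pass the filter on dim probes.

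Granulocyte genes were taken as an early and a late list. Among 14 genes of granulocyte precursors, 6 were lower and 1 was higher, with a median of -0.28 (0.20 in the authors' processed values, of which 4 were lower and 5 higher). Elane, the neutrophil elastase of promyelocytes, was at 13.32, 13.42 and 13.16 on the C arrays and at 11.80, 11.58 and 11.88 on the U arrays, 2.92-fold lower (log2 difference -1.55, standard error 0.13, adjusted p = 3.02e-08). Mpo, the myeloperoxidase of the same granules, did not pass (13.76, 13.90 and 13.97 against 13.89, 13.85 and 13.67, adjusted p = 0.527).

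Genes of mature neutrophils were higher. Of 21 tested, 18 were higher, 0 were lower and 3 did not pass, with a median of 2.25. Camp, the antimicrobial peptide of secondary granules, was at 4.98, 5.09 and 5.24 on the C arrays and at 11.21, 11.20 and 11.47 on the U arrays, 72.9-fold higher (log2 difference 6.19, standard error 0.14, adjusted p = 3.12e-15). Ltf, lactoferrin, read 5.75, 6.61 and 5.56 on the C arrays and 11.90, 12.12 and 11.94 on the U arrays, 64.6-fold higher, while its other, dimmer probe gave a log2 difference of 2.43. Lcn2, lipocalin 2, was 43.3-fold higher. The C set was the low one among all 4 groups, since the means of the CD117- arrays were 13.58 for Camp and 14.13 for Ltf and those of the SCF arrays 10.61 and 11.38. The summed linear level of the 21 genes was 3266 to 5748 on the C arrays, 44119 to 47377 on the U arrays, while the CD117- arrays gave 152313 to 152919. Whether the U cells held mature neutrophils, and what part any had in other differences, was not tested.

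Macrophage genes gave the largest increases. Of 25 monocyte and macrophage markers tested, 19 were higher and 5 lower, with a median of 2.33. Gpnmb, a glycoprotein of lysosome-rich macrophages, was at 4.35, 4.73 and 4.57 on the C arrays, where 1 of 3 was above background, and at 13.77, 13.89 and 13.73 on the U arrays (log2 difference 9.25, standard error 0.30, adjusted p = 3.00e-13). Its 3 other probes, which are dimmer, gave log2 differences of 4.21, 4.30 and 4.89. Mpeg1, the pore-forming perforin-2 of macrophages, was above background on 0 of 3 C arrays and read 11.39, 11.46 and 11.29 on the U arrays, at least 106-fold higher, although its other detected probe, which is dim, gave 0.25 (adjusted p = 0.447). Adgre1, the F4/80 antigen, was 24.0-fold higher. A second, brighter probe of it gave 3.85 (adjusted p = 5.34e-09), and a dim one gave 0.38 (adjusted p = 0.282). Csf1r, the receptor of macrophage colony-stimulating factor, rose from 7.12, 7.50 and 7.31 to 9.92, 10.07 and 9.80. Cd68, a lysosomal glycoprotein of macrophages, was 13.4-fold higher. The lower members were Ccr2, the chemokine receptor of inflammatory monocytes (at least 3.37-fold lower), and Klf4, Cx3cr1, Irf8 and F13a1, with log2 differences of -1.22, -1.10, -0.85 and -0.68.

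Genes used to mark alternatively activated macrophages, which respond to interleukin-4 in tissue repair, were also higher, 10 of 12 tested, with 1 lower and a median of 3.61. Arg1, arginase 1, was at 4.46, 4.69 and 4.57 on the C arrays, where 1 of 3 was above background, and at 12.95, 12.96 and 12.43 on the U arrays (log2 difference 8.21, standard error 0.28, adjusted p = 5.22e-13). Retnla was above background on 0 of 3 C arrays and read 11.94, 11.61 and 11.83 on the U arrays, at least 141-fold higher, and here the U set also stood above the SCF arrays, whose mean was 7.47. Chil3, which neutrophil precursors make as well, was 170-fold higher (5.05, 5.32 and 4.95 against 12.49, 12.57 and 12.50). Mrc1, the mannose receptor, was 22.1-fold higher. Alox15, a lipoxygenase of such macrophages and of eosinophils, was the member that was lower (at least 3.16-fold), and Ccl17 did not pass. The summed linear level of these 12 genes was 617 to 711 on the C arrays, 20589 to 24929 on the U arrays, 5250 to 8071 in CD117- cells and 7718 to 14802 in cells with SCF.

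Megakaryocyte and platelet genes rose together. Of 24 tested, 23 were higher, 0 were lower and 1, Tubb1, did not pass, with a median of 2.42. Vwf, von Willebrand factor, was at 9.65, 10.15 and 9.57 on the C arrays and at 13.26, 13.25 and 13.09 on the U arrays, 10.6-fold higher (log2 difference 3.41, standard error 0.28, adjusted p = 2.08e-08). Pf4, platelet factor 4, was at 10.08, 9.91 and 9.58 on the C arrays and at 13.06, 13.16 and 13.38 on the U arrays. Selp, P-selectin of platelet granules, was 13.7-fold higher and Plek, a signalling protein of platelets and leukocytes, 12.1-fold. The collagen receptor Gp6, the von Willebrand receptor subunit Gp9 and the integrin Itga2b had log2 differences of 2.58, 2.78 and 2.44. The U set was the high one of the 4 groups for this list, with a summed linear level of 84562 to 86751 against 14645 to 20862 on the C, 8569 to 18153 in CD117- cells and 31220 to 32671 in cells with SCF.

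**Figure D2:**
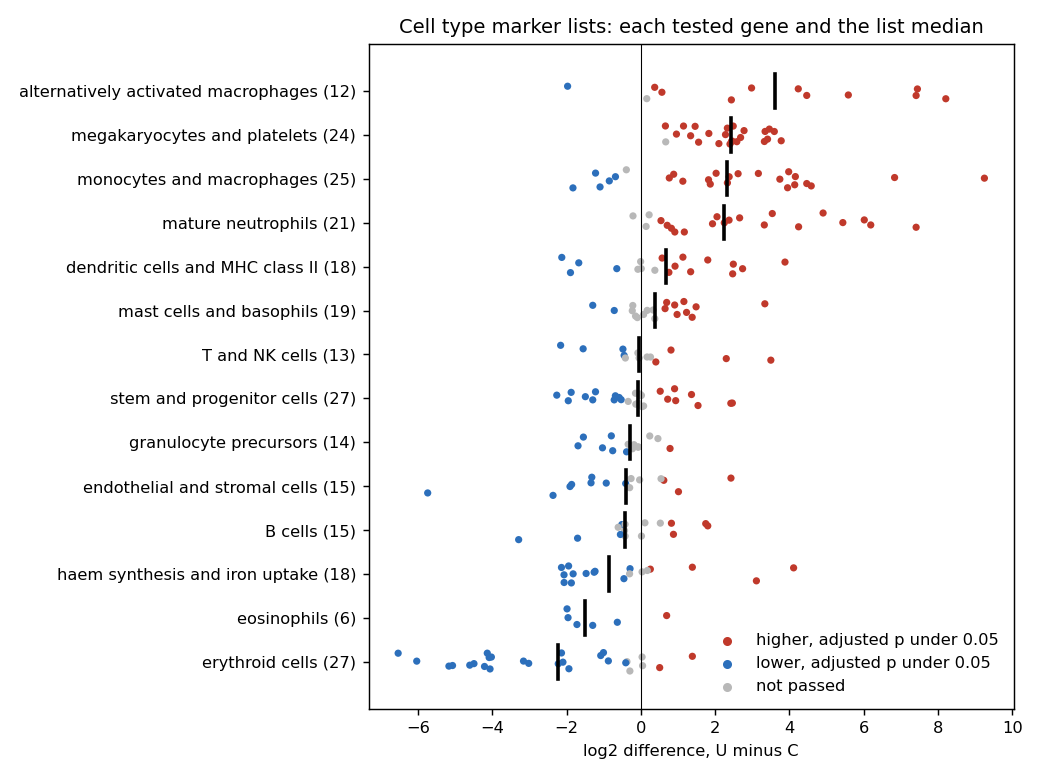
Log2 difference, U minus C, of every tested gene of 14 marker lists (number of genes in brackets), with genes higher (red) or lower (blue) at an adjusted p under 0.05 and the list median as a black bar. Megakaryocyte, neutrophil and macrophage lists lie to the right, with medians of 2.42, 2.25 and 2.33, and the erythroid list to the left, with a median of -2.22.

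Other lineages gave smaller or mixed differences. Genes of mast cells and basophils were higher in 9 of 19, lower in 2 and did not pass in 8, with a median of 0.38. Mcpt8, the basophil protease, rose from 8.77, 8.78 and 8.80 to 10.30, 10.07 and 10.45, while the mast cell genes Cma1 and Fcer1a did not pass. Of 6 eosinophil genes, 5 were lower and 1 was higher. Epx, eosinophil peroxidase, was at 10.04, 10.08 and 9.35 on the C arrays and at 7.94, 7.50 and 8.06 on the U arrays, 3.96-fold lower. B cell genes (4 higher, 4 lower of 15) and T and NK cell genes (4 higher, 4 lower of 13) had medians of -0.42 and -0.05, both above 0 in the authors' processed values (0.15 and 0.24). Of the markers that define these cells, Pax5, Ebf1, Cd4 and Cd8a did not pass the filter on dim probes.

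Some members of the lymphoid and stromal lists differed strongly. Lat, an adaptor of T cells, platelets and mast cells, was at 6.12, 6.04 and 5.79 on the C arrays and at 9.42, 9.20 and 9.83 on the U arrays. Fcrla, a B cell protein, fell from 8.63, 9.01 and 8.65 to 5.49, 5.44 and 5.50, and Igll1, of the surrogate light chain, was at least 2.89-fold lower. Prf1, perforin of cytotoxic cells, was lower too (log2 difference -2.16). Stromal genes were lower in 8 of 15 and higher in 3, with a median of -0.41 (0.07 in the authors' processed values). Cxcl12, the chemokine that holds stem cells in the marrow, read 10.06, 10.38 and 10.23 on the C arrays and was above background on 0 of 3 U arrays, at least 47.7-fold lower (adjusted p = 1.02e-13). Its other, dimmer probes gave log2 differences of -2.16 and -1.63. Among matrix genes Bgn had a log2 difference of -2.36 and Col1a1 was at least 3.03-fold lower. Acta2, smooth muscle actin, was above background on 0 of 3 C arrays and on 3 of 3 U arrays, although 2 of its other probes, both dim, did not pass.

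Among 18 genes of dendritic cells and MHC class II, which present antigen to T cells, 10 were higher and 4 lower, with a median of 0.66. H2-Ab1 was at 7.73, 7.38 and 7.20 on the C arrays and at 11.26, 11.50 and 11.18 on the U arrays, 14.7-fold higher (log2 difference 3.88, standard error 0.18, adjusted p = 3.11e-11). The size depended on the probe, since its other detected probes gave log2 differences of 2.04 and 7.02. H2-Aa was at least 4.27-fold higher, and was above background on no C array and no CD117- array, although H2-Ab1 had a mean of 10.18 on the CD117- arrays. The H2-Aa means split by array set, 4.34 and 4.27 in A and C against 6.74 and 6.73 in U and SCF. H2-Ea, outside the list, split the other way (11.74 and 8.83 against 5.37 and 5.28). Array set and group cannot be told apart for either gene. Ciita, the regulator of class II genes, was at least 5.49-fold higher, and Cd74, the invariant chain, rose from 10.88, 10.76 and 10.36 to 12.66, 12.49 and 12.25. H2-Eb1 went the other way (-1.89), as did Zbtb46 (at least 3.77-fold lower) and Clec9a (-1.67), 2 genes of conventional dendritic cells.

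**Figure D3:**
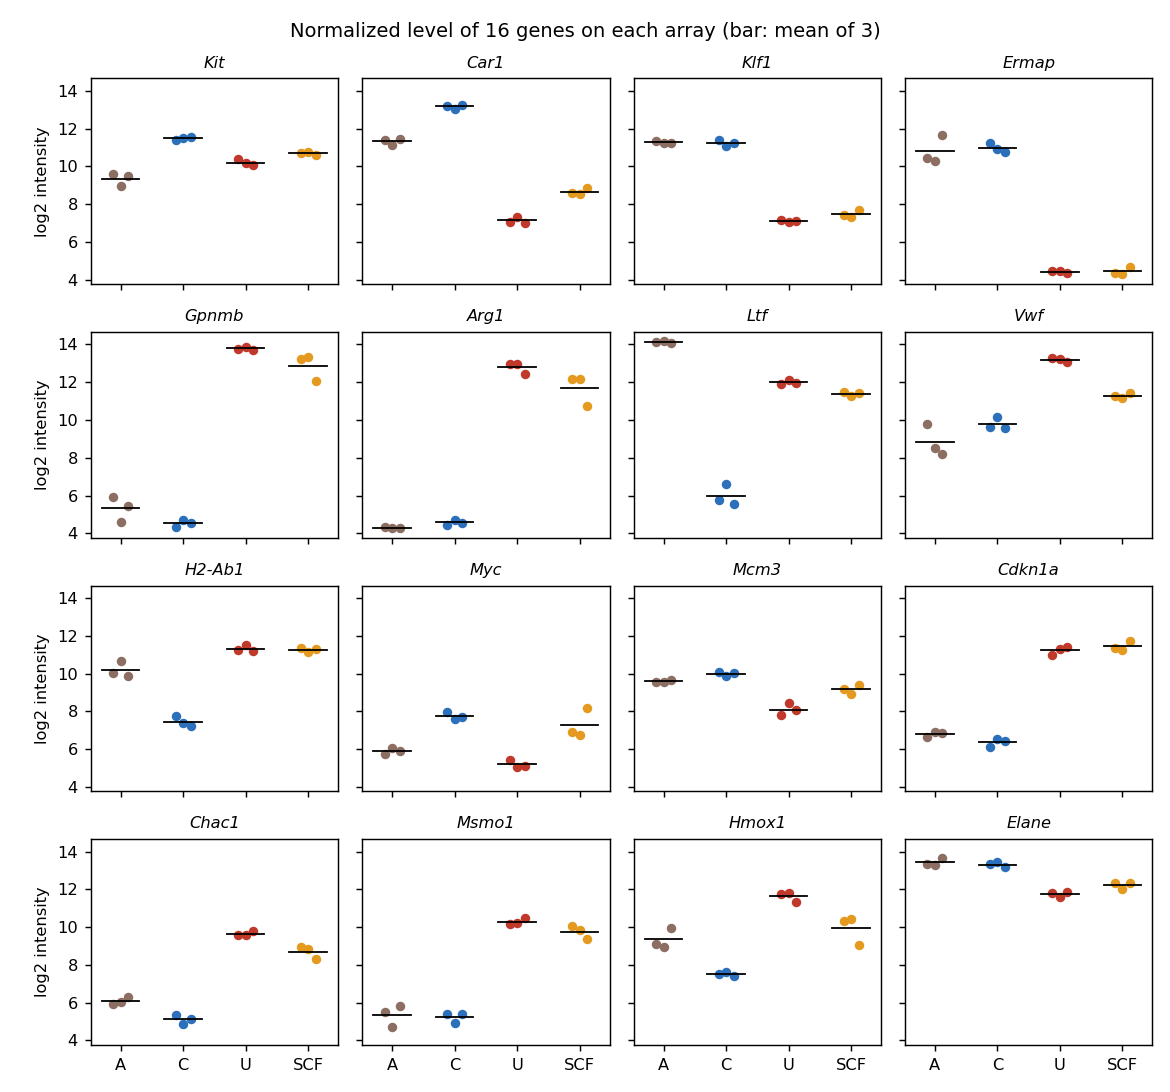
Normalized log2 intensity of 16 genes on each of the 12 arrays, by group (A, CD117-; C and U, CD117+ without SCF; SCF, CD117+ with SCF), with bars at the mean of 3 arrays. The third SCF array lies more than 1 below the other SCF arrays for Gpnmb and Arg1, and for Gpnmb, Arg1 and Cdkn1a the U and SCF arrays lie high while the A and C arrays lie low.

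Genes of cell division were more often lower than higher. Of 38 DNA replication genes tested, 34 were lower and 1 was higher, with a median of -1.13 (-0.46 in the authors' processed values, of which 22 were lower and 3 higher). Mcm3, part of the replicative helicase, was at 10.06, 9.86 and 10.03 on the C arrays and at 7.81, 8.42 and 8.05 on the U arrays, 3.70-fold lower (log2 difference -1.89, standard error 0.16, adjusted p = 3.55e-08). Tk1, thymidine kinase, was 4.05-fold lower. Pcna, the sliding clamp and also a p53 target, was the exception, at 5.94, 5.89 and 5.63 on the C arrays and 7.06, 7.15 and 7.31 on the U arrays. Of 33 mitosis genes, 24 were lower and 4 higher, with a median of -0.87 (-0.14 in the authors' processed values, of which 15 were lower and 8 higher). Top2a, topoisomerase II, was 3.36-fold lower (11.23, 11.26 and 11.29 against 9.33, 9.87 and 9.34), and Mki67, the proliferation antigen, 2.86-fold, although its other probe, which is dim, gave 0.20. The higher ones were Ccna2 and Ube2c, at least 1.89-fold and 1.74-fold, and Cep55 and Tpx2, with log2 differences of 0.81 and 0.52. The probes of Ccna2 and Ube2c were above background on no C array, although Top2a and Mki67 read brightly there.

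Of 19 regulators of the G1 phase tested, 10 were lower and 5 higher, with a median of -0.51, whereas in the authors' processed values 5 were lower and 7 higher, with a median of 0.09. Ccne1, cyclin E1, was at 9.39, 9.20 and 9.06 on the C arrays and at 6.84, 6.57 and 6.32 on the U arrays, 6.24-fold lower, and the factors E2f1 and E2f2 were lower by log2 differences of -1.08 and -1.54. Cdkn1a (p21), the inhibitor induced by p53, was at 6.12, 6.56 and 6.44 on the C arrays and at 10.99, 11.27 and 11.41 on the U arrays, 28.8-fold higher (log2 difference 4.85, standard error 0.17, adjusted p = 5.57e-13). The inhibitors Cdkn2b (at least 1.86-fold) and Cdkn2d (log2 difference 1.18) were higher as well, whereas Cdkn1b and Cdkn2c were lower (-0.51 and -0.89). Ccnd1, cyclin D1, was higher (1.80).

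Targets of p53, the factor that halts division or triggers death after damage, were higher in 18 of 23 and lower in 3, with a median of 1.25. Phlda3, an inhibitor of AKT, rose from 5.67, 6.23 and 5.85 to 10.01, 9.70 and 9.75, 15.0-fold higher. Zmat3, an RNA-binding protein, was 10.3-fold higher, and Bbc3 (PUMA), which starts mitochondrial death, 8.29-fold. Other, dimmer probes gave smaller log2 differences, 2.09 for Phlda3 and 0.92 and 1.53 for Bbc3. Mdm2, which degrades p53, rose from 9.82, 9.70 and 9.53 to 11.46, 11.22 and 11.15. The 3 that were lower were Ddb2 and Xpc, which recognise ultraviolet damage, and the death receptor Tnfrsf10b (-1.49, -0.90 and -0.53). The SCF arrays also read high for Cdkn1a (mean 11.46) and Zmat3 (9.52).

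Genes of 3 DNA repair lists were more often lower than higher here. Of 35 genes of recombination and the Fanconi anaemia pathway, 26 were lower and 3 higher, with a median of -0.85, which was -0.07 in the authors' processed values (14 lower and 6 higher), or -0.37 relative to the shift of all genes there. Xrcc3, a strand exchange factor, was at 7.45, 7.50 and 7.28 on the C arrays and at 5.59, 5.20 and 5.28 on the U arrays (log2 difference -2.06, standard error 0.20, adjusted p = 1.40e-07). Wrn, the Werner helicase, was lower (-1.90), as were Rad51ap1 (-1.80), Brca2 (-1.18) and Fancd2 (-1.47), while Brca1 did not pass. Of 38 excision and mismatch repair genes 16 were lower and 4 higher, and of 25 genes of end joining and the damage checkpoint 15 were lower and 1 was higher. Their medians of -0.34 and -0.63 were above 0 in the authors' processed values (0.18, with 5 lower and 17 higher, and 0.03, with 8 lower and 9 higher). Ung, the uracil glycosylase, fell from 10.15, 10.12 and 10.13 to 8.63, 8.18 and 8.37, and Cdc25a, the phosphatase that the checkpoint destroys, from 8.31, 8.45 and 8.46 to 5.81, 6.25 and 5.93, although a second, dim probe did not pass (-0.24). Timeless and Tipin, which hold the fork together, had log2 differences of -1.77 and -1.97, although a second, dim probe of Tipin did not pass (0.37).

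Of 39 ribosome biogenesis genes, 29 were lower and 6 higher, with a median of -0.69 (-0.07 in the authors' processed values, of which 11 were lower and 9 higher). Nop56, of the snoRNA particles that modify ribosomal RNA, was at 10.07, 9.59 and 10.25 on the C arrays and at 7.61, 8.69 and 8.32 on the U arrays. Myc, the factor that drives this programme, was at 7.94, 7.57 and 7.70 on the C arrays and at 5.44, 5.07 and 5.09 on the U arrays, 5.80-fold lower (log2 difference -2.54, standard error 0.27, adjusted p = 6.61e-07). The mean of the SCF arrays was 7.28. Ribosomal protein genes were lower in 22 of 46 and higher in 3, but their median was small (-0.21) and turned to 0.06 in the authors' processed values. Of 29 genes of the MYC network and nucleotide synthesis, 15 were lower and 5 higher, with a median of -0.50 (0.11 in the authors' processed values), among them Gart and Pfas of purine synthesis, with log2 differences of -1.67 and -1.59, although a second, dim probe of Pfas did not pass (-0.17). Of 12 genes of serine and one-carbon metabolism, 6 were lower and 4 higher, with a median of -0.35 (0.21 in the authors' processed values, of which 2 were lower and 5 higher). Mthfd1, a cytosolic folate enzyme, fell from 11.07, 11.12 and 11.02 to 8.64, 8.61 and 8.64, 5.43-fold lower, and Aldh1l1, another, was higher (1.78). Mthfd2, a mitochondrial one, rose from 9.78, 9.76 and 9.83 to 11.21, 11.11 and 11.01.

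**Figure D4:**
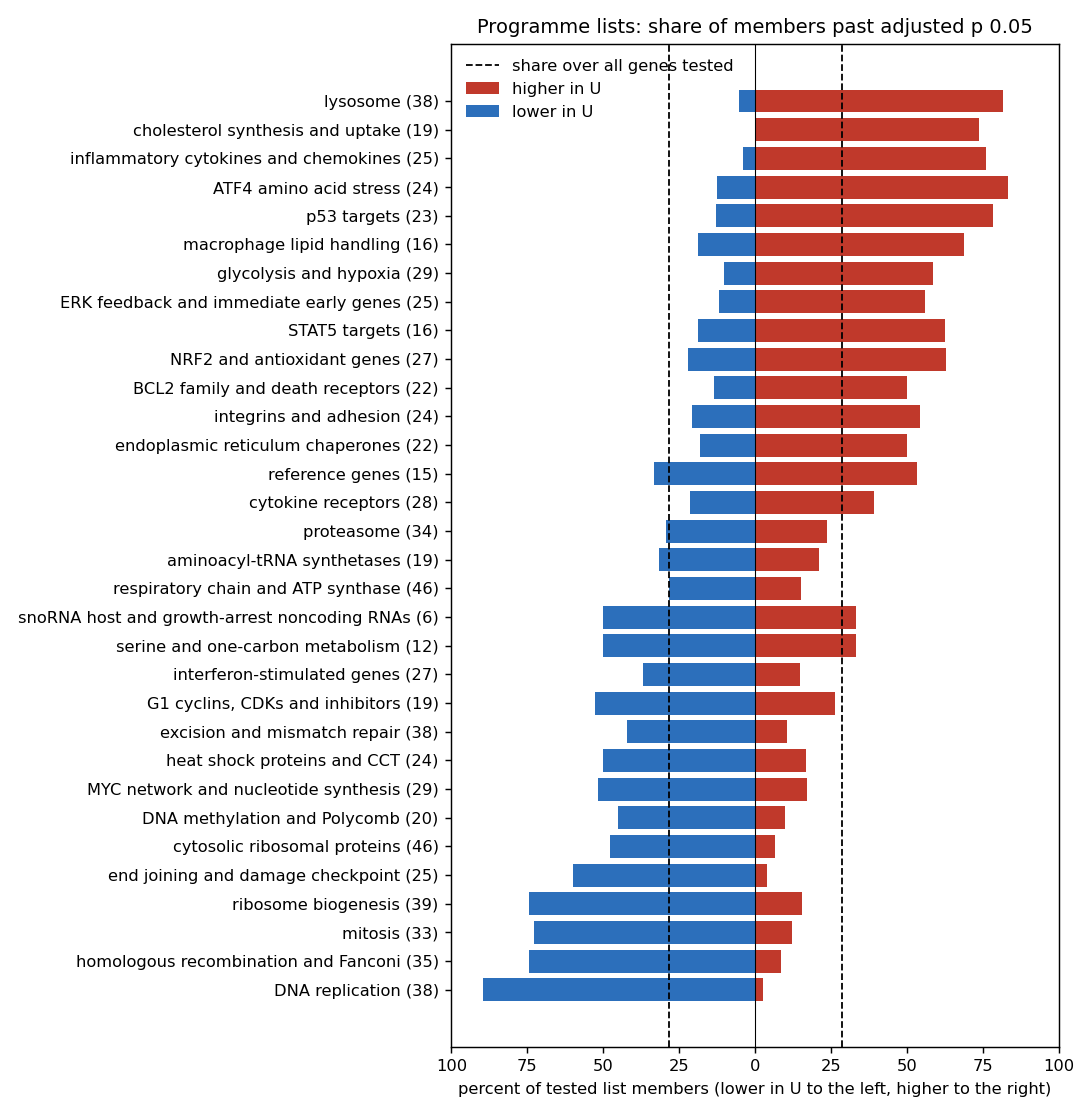
Share of the tested members of 32 programme lists (number of genes in brackets) that were higher (red, to the right) or lower (blue, to the left) in the U set at an adjusted p under 0.05, with the shares over all 11472 genes (28.5% each) as dashed lines. Lysosome (31 of 38) and ATF4 (20 of 24) genes were mostly higher and DNA replication genes (34 of 38) mostly lower.

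ATF4 is the transcription factor that cells translate when amino acids run short or proteins misfold, and it switches on amino acid transport and synthesis genes through an element whose core reads TGATGNAA. Promoters of 4 members of this list are given because they hold this element on either strand, and because 3 of the genes were higher and the fourth, Asns, was not. The 250 bases before each gene start are from RefSeq (GRCm38.p6), in the direction of transcription, with the matches in capitals. The regions are chr2:119350992-119351241 (+) for Chac1, chr1:191183334-191183583 (-) for Atf3, chr3:50443614-50443863 (-) for Slc7a11 and chr6:7693210-7693459 (-) for Asns.
Chac1: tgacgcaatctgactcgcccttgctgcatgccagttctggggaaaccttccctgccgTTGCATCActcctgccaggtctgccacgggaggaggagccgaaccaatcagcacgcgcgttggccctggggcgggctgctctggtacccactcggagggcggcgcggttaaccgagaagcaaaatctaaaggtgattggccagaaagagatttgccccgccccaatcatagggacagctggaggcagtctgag
Atf3: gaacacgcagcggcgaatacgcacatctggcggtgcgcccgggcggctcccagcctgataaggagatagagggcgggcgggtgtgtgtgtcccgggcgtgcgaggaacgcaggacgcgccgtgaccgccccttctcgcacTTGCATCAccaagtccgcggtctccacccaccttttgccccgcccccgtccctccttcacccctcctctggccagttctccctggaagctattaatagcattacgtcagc
Slc7a11: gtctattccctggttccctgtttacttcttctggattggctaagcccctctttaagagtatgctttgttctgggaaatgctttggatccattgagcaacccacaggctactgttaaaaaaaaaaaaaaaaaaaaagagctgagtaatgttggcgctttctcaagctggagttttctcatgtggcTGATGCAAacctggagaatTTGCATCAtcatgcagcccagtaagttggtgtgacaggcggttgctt
Asns: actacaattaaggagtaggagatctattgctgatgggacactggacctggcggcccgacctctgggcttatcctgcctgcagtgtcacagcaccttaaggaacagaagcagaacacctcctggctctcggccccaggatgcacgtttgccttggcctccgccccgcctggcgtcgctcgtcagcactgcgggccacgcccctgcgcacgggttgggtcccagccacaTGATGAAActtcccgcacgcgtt
The element TGATGNAA was searched on both strands. It was found in 6 of 21 list members with a promoter in the table (Atf3, Chac1, Asns, Nupr1, Slc7a11 and Pycr1) and in 3.53% of all 27025 promoters. In the same windows the E2F-like element TTTNNCGC was found in 8 of 31 DNA replication genes (4.39% of all), the GATA element AGATAA in 5 of 19 erythroid genes (10.3% of all), TCACNCCA in 2 of 16 cholesterol genes (3.58% of all) and TTCNNNGAA in 2 of 12 STAT5 targets (7.18% of all). These are matches of letters and not sites of binding.

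Of 24 ATF4 list genes, 20 were higher in the U set and 3 lower, with a median of 1.42. Chac1, an enzyme that breaks down glutathione, was at 5.37, 4.86 and 5.16 on the C arrays and at 9.58, 9.59 and 9.79 on the U arrays, 23.0-fold higher (log2 difference 4.53, standard error 0.19, adjusted p = 8.84e-12). Atf3, a stress-induced factor, was above background on 0 of 3 C arrays and read 8.42, 8.46 and 8.41 on the U arrays, at least 13.7-fold higher. Slc7a11, the cystine transporter, was likewise above background on 0 of 3 C arrays, and was at least 4.10-fold higher. Asns, asparagine synthetase, whose promoter carries the same element, was at 11.10, 10.98 and 11.04 on the C arrays and 11.28, 11.20 and 11.00 on the U arrays, and did not pass (log2 difference 0.12, standard error 0.13, adjusted p = 0.456). Vldlr, a lipoprotein receptor, was 22.4-fold higher, Trib3, a pseudokinase that binds ATF4, 11.6-fold, and Atf4 itself rose from 9.87, 10.18 and 10.07 to 11.34, 11.31 and 11.52. Other, dimmer probes of Trib3 gave smaller log2 differences of 1.30 and 1.53. The 3 lower genes were Slc1a5 (above background on 0 of 3 U arrays), Slc38a2 and Aldh18a1, the first pair of them neutral amino acid transporters. The SCF arrays were high as well, with means of 8.71 for Chac1 and 8.53 for Vldlr.

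The enzymes that load tRNAs, several of which respond to ATF4, went both ways (4 higher and 6 lower of 19, median 0.10). Aars was higher (9.30, 9.15 and 9.16 against 10.85, 10.90 and 10.83) and Vars lower (10.69, 10.66 and 10.38 against 9.01, 8.45 and 8.65). Of 22 chaperones of the endoplasmic reticulum, 11 were higher and 4 lower. Hspa5 (BiP), their main member, rose from 4.58, 4.69 and 4.72 to 7.58, 7.45 and 7.49, 7.17-fold. It had 1 detected probe, which read near background on the C arrays. Its means of 4.41 in CD117- cells and 7.72 with SCF put it low in 1 array set and high in the other. Hyou1, the partner of Hspa5, was lower (-2.04). Calr, calreticulin, was lower too (8.67, 8.50 and 10.08 against 5.96, 7.87 and 7.56, log2 difference -1.95, adjusted p = 0.00686), but not without the array U-1 (-1.37, adjusted p = 0.0527). Heat shock and CCT genes were lower in 12 and higher in 4 of 24, with a median of -0.31 (0.16 in the authors' processed values).

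Cholesterol synthesis genes were higher in 14 of 19 and lower in 0, with a median of 1.27. Msmo1, a sterol oxidase, was at 5.39, 4.93 and 5.38 on the C arrays and at 10.19, 10.19 and 10.48 on the U arrays, 33.2-fold higher (log2 difference 5.05, standard error 0.25, adjusted p = 4.78e-11). Insig1, which senses sterols, was 6.71-fold higher, and the earlier steps Mvd and Idi1 had log2 differences of 2.79 and 2.50. Glycolysis and hypoxia genes were higher in 17 of 29 and lower in 3, with a median of 0.41. Slc2a3, a glucose transporter, rose from 9.72, 10.01 and 9.88 to 12.10, 12.03 and 11.94, and Slc2a1 from 7.45, 7.46 and 7.39 to 9.36, 9.35 and 9.00. Proteasome genes (8 higher, 10 lower of 34) were near the background. Respiratory chain genes (7 higher, 13 lower of 46) were near it in the share lower (28.3%) but below it in the share higher (15.2%). The respiratory chain and proteasome medians of -0.20 and -0.11 turned to 0.38 and 0.44 in the authors' processed values, with 28 and 25 higher and 0 lower in each. Psmb9, a subunit of the immunoproteasome, stood apart from its complex, at 5.36, 4.85 and 5.44 on the C arrays and at 10.19, 10.12 and 10.20 on the U arrays.

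Inflammatory genes were higher in 19 of 25 and lower in 1, with a median of 0.98. Ccl7, a chemokine for monocytes, was above background on 0 of 3 C arrays and read 11.34, 11.49 and 10.89 on the U arrays, at least 96.5-fold higher. Ccl2, another, was at least 16.3-fold higher, Ccl6 was 16.5-fold higher, and the cytokine Il1b rose from 5.41, 5.03 and 5.42 to 8.83, 8.38 and 8.62. Ccl5, made by T and NK cells, was the one that was lower (-1.55). Interferon-stimulated genes did not share this direction. Of 27, 4 were higher and 10 lower, with a median of -0.10 (0.15 in the authors' processed values). Oasl1 was lower (6.77, 6.78 and 6.74 against 4.55, 4.45 and 4.68) and Isg15 higher (6.83, 6.97 and 6.66 against 8.33, 7.99 and 8.62).

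Genes that report on receptor signalling were more often higher. Of 25 immediate early and ERK feedback genes, 14 were higher and 3 lower, with a median of 0.63. Dusp4, a phosphatase of the ERK pathway, rose from 4.57, 5.05 and 4.75 to 7.12, 7.52 and 7.41, and Ier3 had a log2 difference of 2.81. Of 16 STAT5 targets, which answer to erythropoietin and other cytokines, 10 were higher and 3 lower, with a median of 0.91. Socs3, a feedback inhibitor of cytokine receptors, was at 5.03, 5.45 and 5.23 on the C arrays and at 8.57, 8.58 and 8.64 on the U arrays, 10.3-fold higher, and Cish, another, was 3.77-fold higher. Among cytokine receptors 11 were higher and 6 lower of 28, with a small median of 0.18. In the authors' processed values 21 were higher and 2 lower. The median there was 0.27, or -0.02 relative to the shift of all genes. Csf2rb2, the interleukin-3 receptor chain of mice, rose from 5.96, 5.80 and 5.74 to 9.71, 8.93 and 8.99, 10.4-fold.

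Regulators of cell death were higher in 11 of 22 and lower in 3. Bcl2a1d and Bcl2a1b, near-identical copies of a survival gene whose probes may not tell them apart, were both higher, with log2 differences of 3.71 and 3.53. Casp9, the initiator of mitochondrial death, was above background on 0 of 3 C arrays and read 8.79, 8.90 and 9.01 on the U arrays, but its other detected probes gave -0.17 and -1.24, so no direction is given for it. Among integrins and adhesion genes 13 were higher and 5 lower of 24. Itgb3 and Itgb5, partners of the αv chain, were higher (at least 4.82-fold, and by a log2 difference of 2.53), while Vcam1 was at 9.35, 9.71 and 9.41 on the C arrays and at 6.36, 6.41 and 6.48 on the U arrays, 8.41-fold lower.

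Lysosome genes were higher in 31 of 38 and lower in 2, with a median of 1.24. Of the cathepsins, proteases of osteoclasts and macrophages, Ctsk was at least 16.2-fold higher and Ctss had a log2 difference of 3.98. Ctsb rose from 10.36, 10.39 and 10.46 to 13.52, 13.66 and 13.42, and Lgmn, another protease, from 7.10, 7.25 and 7.11 to 11.33, 11.48 and 10.50. The lower members were Lipa, lysosomal acid lipase (8.51, 8.59 and 8.15 against 6.02, 6.11 and 5.75), and Ctsf. Of 16 genes of macrophage lipid handling, 11 were higher and 3 lower. Trem2, a lipid receptor, was 17.9-fold higher and Fabp5, a fatty acid carrier, at least 9.60-fold. Antioxidant genes, many of them targets of NRF2, were higher in 17 of 27 and lower in 6. Gstm2, a glutathione transferase, was at 5.17, 5.16 and 5.13 on the C arrays and at 10.22, 10.33 and 10.38 on the U arrays, 35.7-fold higher (log2 difference 5.16, standard error 0.28, adjusted p = 1.79e-10). Nqo1, Cat and Prdx2 were among the lower ones, the last an abundant protein of red cells.

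Chromatin genes and noncoding RNAs were measured as well. Of 20 genes of DNA methylation and Polycomb, 9 were lower and 2 higher, with a median of -0.43 (0.09 in the authors' processed values). Ezh2, the Polycomb methyltransferase, was at 8.15, 8.06 and 8.98 on the C arrays and at 5.94, 6.84 and 5.91 on the U arrays, although its 2 other probes, which are dimmer, did not pass. Among 6 host genes of small nucleolar RNAs and other noncoding RNAs, Snhg12 was at 10.00, 10.13 and 10.19 on the C arrays and at 4.80, 5.31 and 5.28 on the U arrays, 31.5-fold lower, and Snhg5 and Zfas1 were lower as well (-2.66 and -1.76), while Neat1 was higher (1.91). Genes often used as references were not flat. Of 15 tested 8 were higher and 5 lower, with a median of 0.26, and Actb rose by 1.42 on its brightest probe, a call that was lost with the 6 arrays normalized alone (0.52, adjusted p = 0.234) and with the mean of its probes (0.50, adjusted p = 0.29).

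Several of the largest differences lay outside the lists. Sphk1, which makes sphingosine 1-phosphate and supplies it from red cells, was at 11.90, 11.68 and 11.77 on the C arrays and at 5.50, 4.82 and 5.06 on the U arrays, 101-fold lower (log2 difference -6.66, standard error 0.19, adjusted p = 6.50e-14). Its other, dim probe gave -1.04. Slc38a5, a glutamine transporter of erythroid precursors, was 58.4-fold lower and Csrp1, a LIM protein, 52.6-fold. Abcg4, a sterol transporter, and Col5a1, a collagen, had log2 differences of -4.77 and -5.35. On the high side, Ednrb, the endothelin B receptor, rose from 4.77, 4.78 and 4.50 to 11.43, 11.79 and 11.37, Col18a1, the collagen that yields endostatin, from 4.77, 4.66 and 4.44 to 11.07, 10.99 and 10.96, and Clec4n, a receptor for fungal sugars, was above background on 0 of 3 C arrays and read 10.29, 10.59 and 10.26 on the U arrays. Other, dimmer probes gave log2 differences of 0.53 and 4.52 for Ednrb and 2.94 for Col18a1.

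Set beside the other groups, the lists had unlike profiles. Taken relative to the C mean, the median over the erythroid list was -2.47 to -2.17 on the U arrays, -3.22 to -2.82 with SCF and 0.58 to 0.70 in CD117- cells. For megakaryocyte genes it was 2.36 to 2.40 on the U arrays and 0.68 to 0.90 on the SCF arrays. DNA replication genes lay at -1.21 to -1.05 on the U arrays, below the SCF arrays (-0.42 to -0.25) and the CD117- arrays (-0.41 to -0.28). For p53 targets, ATF4 genes and cholesterol genes the U arrays lay at 1.23 to 1.26, 1.33 to 1.64 and 1.21 to 1.35 and the SCF arrays at 0.81 to 1.03, 1.05 to 1.36 and 0.99 to 1.22. Ribosome biogenesis genes lay at -0.73 to -0.68 on the U arrays and at -0.08 to 0.03 on the SCF arrays. The U and SCF arrays belong to 1 array set, and the A and C arrays to the other.

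**Figure D5:**
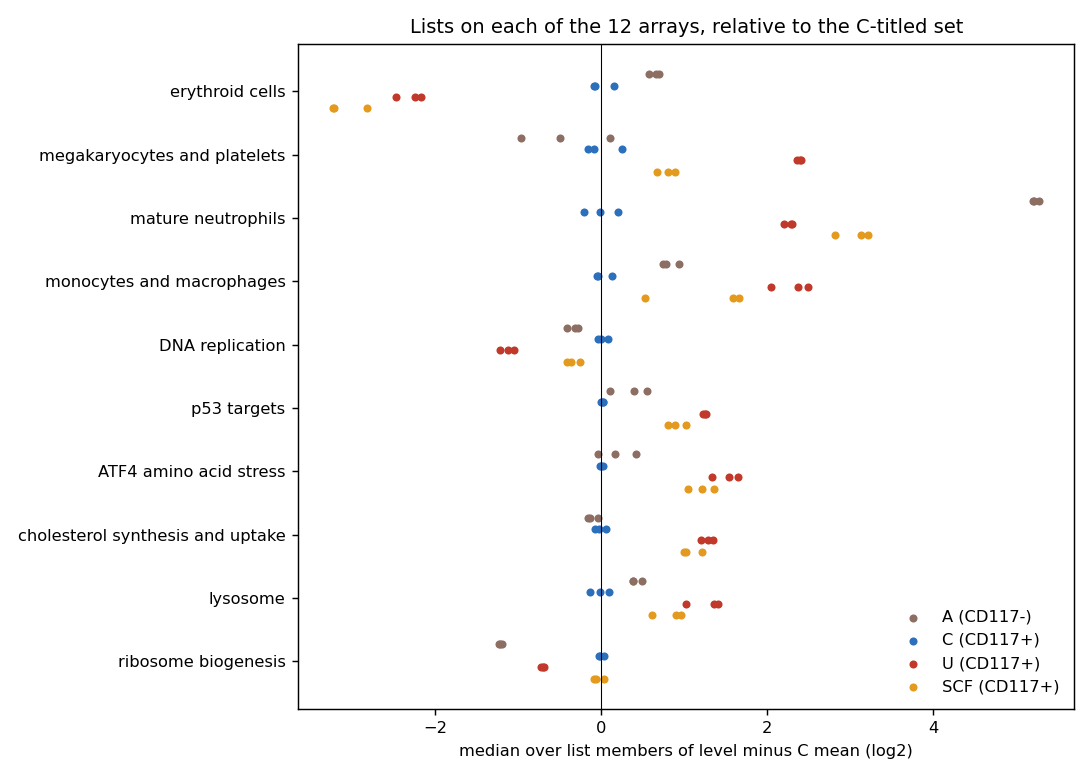
Median over the members of 10 lists of the level minus the mean of the C arrays (log2), for each of the 12 arrays. The U arrays stand highest for megakaryocyte genes (2.36 to 2.40) and lowest for DNA replication genes (-1.21 to -1.05), and for erythroid genes the SCF arrays (-3.22 to -2.82) lie below the U arrays.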

How the data were processed

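Labelled RNA of 12 samples was measured on Illumina mouse arrays. For every probe the authors deposited a linear scanner intensity, neither background-corrected nor normalized, with the detection p-value of that probe on that array. Their second table held processed intensities, quantile normalized apart for the A and C and for the U and SCF arrays. Array model and scanner software: not given in the sources used here. Sequencing is named in the methods, but the values are array intensities.

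Intensities of all 12 arrays were background-corrected by normexp with negative controls inferred from the detection p-values, quantile normalized (neqc, offset 16) and taken to log2 with limma 3.58.1 in R 4.3.3. Python 3.11.15 with matplotlib 3.10.9 made the plots. Of 45281 probes, 35784 had a gene symbol in the platform table, with symbols updated through RefSeq (GRCm38.p6). A probe was kept where its detection p was under 0.05 on 3 or more of the 12 arrays, and the brightest probe stood for each of 11472 genes. The contrast U minus C came from lmFit and eBayes with a trend over 4 group means and 8 residual degrees of freedom, with Benjamini-Hochberg adjustment. Other probes were tested in a fit of 17712 detected probes with a symbol. For a gene above background on no array of 1 set, the fold is a lower bound against whichever was higher, its own level or the lowest level above background. Above background on 1 or 2 of the 3 arrays of the dimmer set were Cdkn1b, Csrp1, Ctsf, Ctss, Col18a1, Dusp4, Ednrb, Hspa5, Hyou1, Idi1, Kel, Oasl1 and Trib3, beside Gpnmb and Arg1.

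Of the 1253 distinct genes of 46 lists, 1150 had a named probe and 1027 were tested. The lists and the comparison were chosen with earlier results of these data known. Named genes were Kit, the 12 largest increases and 12 largest decreases with arrays that did not overlap, and up to 4 leading members of each list, 184 genes in all. Other genes named for their roles were chosen after their values were seen. On simulated arrays, true log2 changes of 0.5, 1 and 2 were given to 67, 67 and 66 of 11472 genes. The fit found 13.4%, 86.6% and 100% of them, with 7 false ones among 140 calls. At most 0.00221% of the raw values were equal between any pair of arrays. Where nothing beyond the methods shows the source of a replicate, p-values measure only the spread between these samples. The alternatives are given in the closing section.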

Additional observations from a re-analysis of the deposited data

How the results depend on the processing

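Calls of the 184 named genes kept their direction under every alternative run. The counts over all genes were 3274 higher and 3275 lower. They became 7429 and 1021 in the authors' processed values, which are not scaled between the array sets, and 1445 and 1106 with a fold threshold of 1.5, which is stricter by construction. In the authors' values 6 named genes (Ear10, Calr, Cct4, Cct6a, Cct3 and Psme3) and with the fold threshold 11 named genes no longer passed, and 67 calls over all genes were opposite in the authors' values. The medians of 16 of 46 lists changed sign there, and those of 3 lists (respiratory chain, proteasome and cytokine receptors) relative to the shift of all genes. Of 92 counts of list members higher or lower, 53 moved by over 1.5 times there, 60 with the fold threshold, 14 with detection on all 6 arrays and 8 with median scaling. Median scaling gave 3798 and 2420, cyclic loess 3587 and 3061, the authors' values quantile normalized together 3259 and 3255, and other filters, probe rules and fits counts within 1.5 times. Leaving out each of the 6 arrays in turn gave 2959 to 3072 higher and 2906 to 3060 lower, and the named call lost was that of Calr without U-1. Detection on all 6 arrays left 142 of the 184 genes, which removes those not above background in 1 set. Changes of 0.5 were mostly missed on the simulated arrays. Those held far fewer changed genes than were called here, so the adjusted p cut there was stricter and that share does not carry over.

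Samples with the same replicate number did not deviate together (correlations of 0.21, -0.19 and 0.03), so the numbers were not taken to pair the mice. With the number as a replicate block 3269 genes were higher and 3230 lower, and no named call changed.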

Other observations

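For 136 genes all 6 U and SCF arrays were separated from all 6 A and C arrays by at least 2 on the log2 scale, with 74 higher in the U and SCF arrays and 62 higher in the A and C arrays. Several have no marker role in the lists and read near the background in 1 array set and brightly in the other. Thumpd1 had means of 4.26 and 4.25 in A and C and of 9.04 and 9.62 in U and SCF, and Cops8 of 9.36 and 9.48 against 5.17 and 4.94. By RefSeq gene order, 8 of the 136 (5.88%) lay in a stretch of chromosome 17, chosen after the values were seen, that holds the major histocompatibility complex and 135 of 11454 located genes tested (1.18%). They were Abhd16a, H2-Aa, H2-Ea, H2-K1, H2-T10, Msh5, Psmb9 and Trim10. Their directions were mixed. Psmb9 (5.16 and 5.22 in A and C against 10.17 and 11.04 in U and SCF), H2-T10 (4.41 and 4.39 against 8.59 and 9.06) and Abhd16a (4.52 and 4.81 against 10.39 and 9.70) were high in the U and SCF arrays, whereas H2-K1 (10.60 and 10.10 against 6.24 and 6.54) and H2-Ea (11.74 and 8.83 against 5.37 and 5.28) were high in the A and C arrays.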
